A study of Mus musculus with 20 samples.

Results

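Immediate early genes and heat shock genes were followed in purified mouse beta cells of 4 genotypes. Members were taken as all entries of the expression table that carried 1 of 38 listed gene symbols (32 immediate early and 6 heat shock genes) and averaged 0.5 FPKM or more across the 20 libraries. FPKM counts fragments per kilobase of gene, scaled to sequencing depth. All 38 symbols were in the table, and 35 of them were members, 29 immediate early and 6 heat shock genes, of 12455 genes tested. Npas4 was the lowest member at 1.04 FPKM, and Egr2 (0.108 FPKM), Nr4a3 (0.0753 FPKM) and Egr3 (0.0378 FPKM) fell below the limit with at most 19 reads in any library.

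The beta cells came from male mice of 6 to 8 months on standard chow. WT was the wild type, IKO lacked Foxo1 (floxed Foxo1), HKO lacked Hnf4a (floxed Hnf4a) and DKO lacked both, with 5 libraries each. Both deletions were made by RIP-Cre, a Cre recombinase driven by the rat insulin promoter, so they were limited to cells in which that promoter had been active, and a Cre-dependent tomato reporter at ROSA26 marked the cells that were sorted from purified islets. According to its title, the study asks how the Hnf4a and FoxO1 networks oppose each other in beta cells. Foxo1 is a transcription factor held out of the nucleus by insulin signalling, and Hnf4a is a nuclear receptor that activates metabolic genes.

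Immediate early genes are switched on within minutes of a stimulus without new protein synthesis, since the factors that drive them, such as serum response factor and CREB, are already present and are activated by kinases. Many encode transcription factors (the Fos and Jun partners of AP-1, the Egr, Klf and Nr4a families), and others encode inhibitors that end the response, such as phosphatases of MAP kinases and proteins that destabilise mRNA. Heat shock genes encode chaperones and are driven mainly by Hsf1. In beta cells, glucose and depolarisation raise calcium and cAMP, which induce several of these genes. Enzymatic dissociation and sorting are also known to induce both groups in many tissues.

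Library totals were 22.6 to 34.7 M (mega) reads, and Ins1 and Ins2 together held 14.9 to 22.3% of them. Within every genotype, replicates 1 and 2 were close to each other in their reads, and so were replicates 4 and 5, while replicate 3 stood apart. A chi-square per gene and degree of freedom, for which sampling noise gives 1, had a median of 1.69 in the 8 close pairs and 10.9 in the 32 other pairs. These groupings (1 with 2, 3 alone, 4 with 5) are called library sets here, since the labels name no batch and leave unsaid whether each library had its own animal. The p-values thus reflect a spread between libraries that may be technical, and each call is also given with close pairs averaged into 1 sample. Foxo1 was lower in IKO than in WT (log2 fold change −2.18) and in DKO than in HKO (−1.73), with no overlap of libraries (exact two-sided permutation p = 0.00794 each, the smallest that 5 against 5 libraries can give). Hnf4a, whose gene-level value also counts exons outside the floxed part, was lower by 0.48 on the log2 scale in HKO than in WT (exact permutation p = 0.00794, limma adjusted p = 0.063). In DKO it was lower than in IKO by 0.38 (exact permutation p = 0.0317, limma adjusted p = 0.161), where IKO replicate 5 (3.91 FPKM) lay inside the DKO range of 3.52 to 4.41 FPKM. Averaged over both Foxo1 states, Hnf4a was lower by 0.43 (limma adjusted p = 0.00464). All 12 beta cell markers were at or above 0.5 FPKM. Acinar transcripts moved with the loss of Hnf4a: of 24 acinar markers 21 had a mean of at least 0.5 FPKM, Prss1 and Amy2a5 were listed at 0 in all libraries, and the summed level was 43.6 to 289.7 FPKM in the WT libraries, 27.9 to 249 in IKO, 455 to 1733 in HKO and 187 to 1669 in DKO.

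The members covered a wide range of levels. Averaged over the 20 libraries, the constitutive chaperone Hspa8 was highest at 280.5 FPKM, followed by Junb (124 FPKM), Gadd45g (87.8 FPKM), Jund (84.8 FPKM), Fos (82.9 FPKM), Btg2 (69.3 FPKM) and Egr1 (56.2 FPKM). At the other end were the inducible chaperones Hspa1a (2.39 FPKM) and Hspa1b (2.47 FPKM), Fosb (2.28 FPKM), Dusp6 (2.14 FPKM) and Npas4 (1.04 FPKM). FPKM is scaled to gene length, so most of these levels can be set side by side across genes. Hspa1a and Hspa1b are an exception, since reads of these near-identical copies could have been split or dropped in counting.

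**Figure D1:**
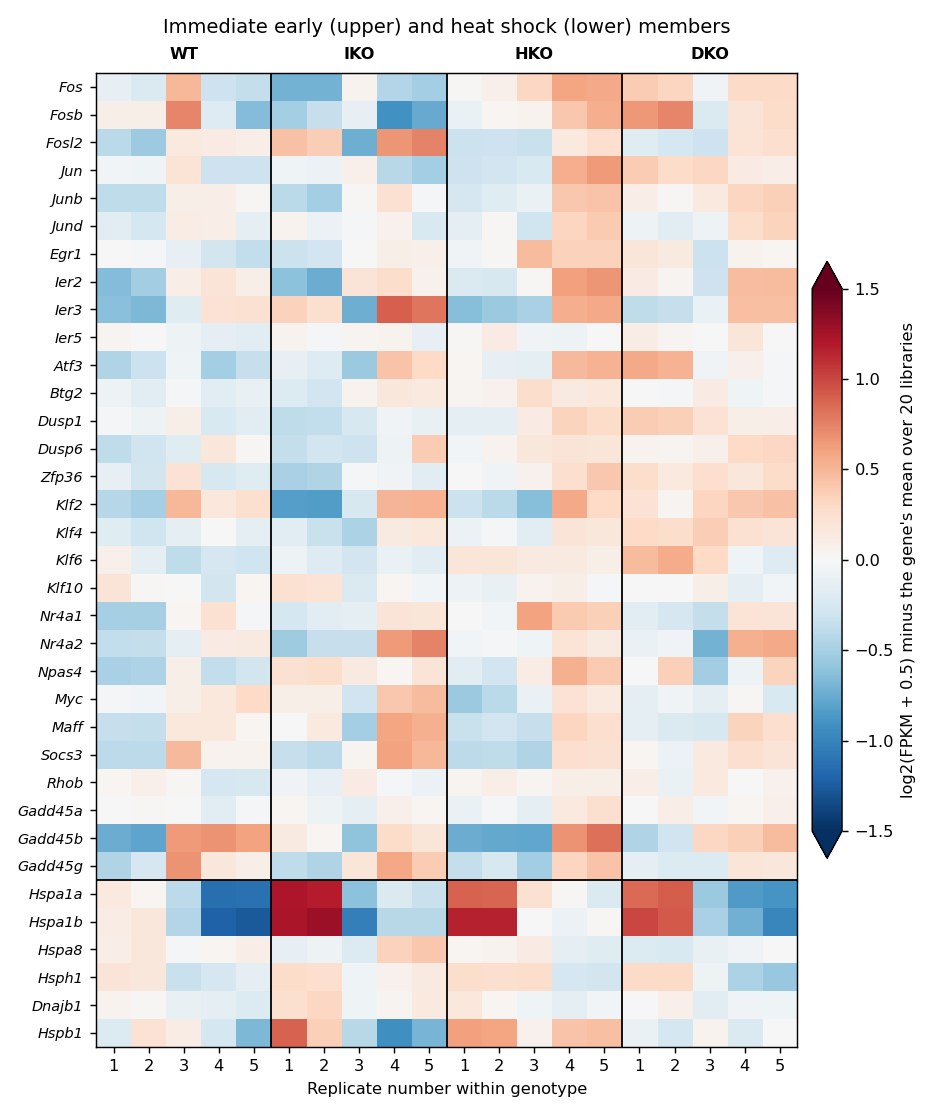
Levels of the 35 members in every library, as log2(FPKM + 0.5) minus the mean of the gene over the 20 libraries; columns are libraries by genotype and replicate number, rows are genes, and the line divides the 29 immediate early from the 6 heat shock members. Fos and Dusp1 are mostly blue in IKO and red in HKO and DKO, and Hspa1a and Hspa1b are highest in replicates 1 and 2 of every genotype.

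Loss of Hnf4a went with higher levels of a small group of immediate early genes. Averaged over both Foxo1 states (10 libraries of HKO and DKO against 10 of WT and IKO), 4 of 35 members rose and none fell. They were Fos, the partner of Jun in AP-1; Zfp36, which binds AU-rich mRNA and speeds its decay; Dusp1, a nuclear MAP kinase phosphatase; and Klf6, a zinc finger transcription factor. Among all 12455 genes, 0.963% passed in the higher direction and 2.6% in either. When Hnf4a was lost on top of Foxo1 (DKO against IKO), 3 of these 4 rose, Fos, Zfp36 and Dusp1. Among all genes, 0.353% passed there in the higher direction and 1.11% in either. That comparison is a part of the average that picked these genes and uses the same libraries, so it is no separate support. The other part, HKO against WT, gave 0 calls among the members. Passing means a limma adjusted p below 0.05 over all genes tested. All 7 calls ended when close pairs were averaged into 1 sample (adjusted p from 0.371 to 0.9997) or treated as correlated (0.0656 to 0.509). These calls thus hold only where each library counts as a separate sample. Averaging also ended the limma calls of the deleted gene Foxo1. Its adjusted p went from 3.4e-05 to 0.0778 for IKO beside WT, and from 0.0014 to 0.447 for DKO beside HKO. Foxo1 kept both calls with close pairs treated as correlated (0.00038 and 0.0077). A call lost on averaging alone therefore does not show that a change is absent. In bulk RNA, more cells with a transcript and more of it per cell cannot be told apart.

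No member passed in limma, with no block, in the other 6 comparisons. The background of all genes was 0.787% in HKO against WT, 1.2% in DKO against WT, 0.0241% in IKO against WT, 0.00803% in DKO against HKO, 0.00803% in the interaction and 0.0161% for loss of Foxo1 averaged over both Hnf4a states. At an unadjusted p below 0.05, 10 members were higher and 0 lower in HKO against WT (2.83% and 4.23% of all genes), and 8 were higher and 0 lower in DKO against WT (4.09% and 3.93%). In DKO against IKO 8 were higher and 1 lower (4.33% and 5.89%), and for loss of Hnf4a on average 13 were higher and 1, Myc, was lower (4.72% and 6.92%). HKO against WT and DKO against WT share the WT libraries. For Foxo1 the counts were 2 higher and 2 lower in IKO against WT (2.63% and 1.68%), 1 higher and 2 lower in DKO against HKO (2.28% and 1.41%), 2 higher and 2 lower in the interaction (2.2% and 2.22%), and 0 in either direction on average (2.31% and 1.44%). By limma's voom on reads recovered from the FPKM values, 1 member passed in DKO against WT, Klf4, and 0 in the other 5 of these comparisons. Over the 29 immediate early members the median log2 fold change for loss of Hnf4a was 0.13, with 21 (72.4%) above 0. Over all genes the median was 0.00, with 51.0% above 0. For loss of Foxo1 the immediate early median was 0.03, with 21 (72.4%) above 0, against 0.02 over all genes, with 62.7% above 0.

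**Figure D2:**
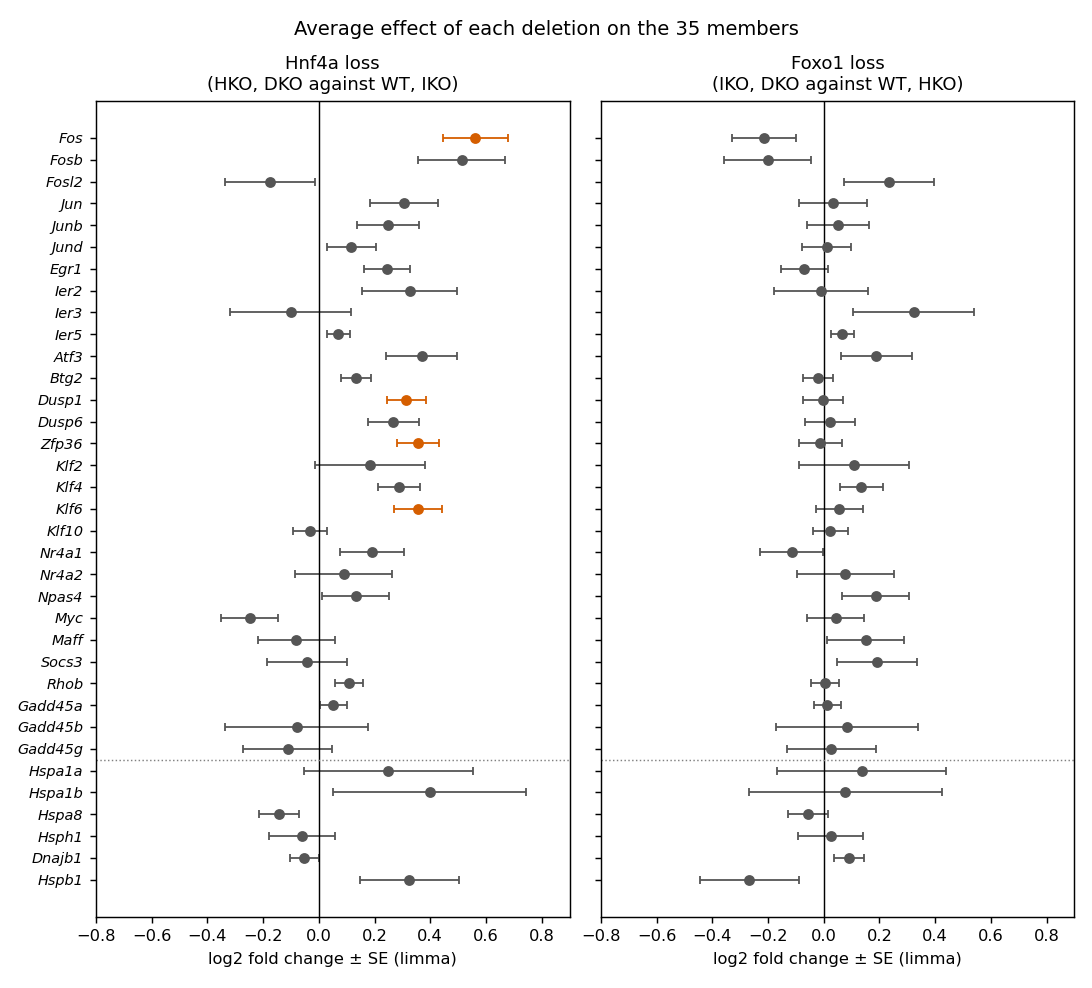
log2 fold change with its SE (limma) of each member for loss of Hnf4a (HKO and DKO against WT and IKO, left) and loss of Foxo1 (IKO and DKO against WT and HKO, right), 10 libraries against 10. Orange marks an adjusted p below 0.05, which holds for Fos, Dusp1, Zfp36 and Klf6 in the left panel and for no member in the right panel.

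The promoters of the 4 called members are shown so that their letters can be read beside their values. Each line gives the 250 bases before the RefSeq start site (GRCm38.p6, gene strand, 5′ to 3′). Gene spans given further on come from the GENCODE annotation, which can start a gene elsewhere. The windows of Dusp1 and Zfp36 thus lie inside those spans, and that of Klf6 overlaps its span. Capitals mark TGACG on either strand (the core of the cAMP response element) and TATAAA in Fos, TGACG and its full palindrome TGACGTCA in Dusp1, and the serum response element known as the CArG box in Zfp36. Klf6 held none of these and has no capitals. Fos is at chr12:85473640-85473889 on the plus strand, Dusp1 at chr17:26508473-26508722 on the minus strand, Zfp36 at chr7:28379229-28379478 on the minus strand and Klf6 at chr13:5861239-5861488 on the plus strand.
Fos: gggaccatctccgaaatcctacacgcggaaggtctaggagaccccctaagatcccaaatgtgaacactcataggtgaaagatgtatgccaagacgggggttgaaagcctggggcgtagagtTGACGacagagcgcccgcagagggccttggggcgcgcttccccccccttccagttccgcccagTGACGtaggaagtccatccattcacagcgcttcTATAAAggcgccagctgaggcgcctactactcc
Dusp1: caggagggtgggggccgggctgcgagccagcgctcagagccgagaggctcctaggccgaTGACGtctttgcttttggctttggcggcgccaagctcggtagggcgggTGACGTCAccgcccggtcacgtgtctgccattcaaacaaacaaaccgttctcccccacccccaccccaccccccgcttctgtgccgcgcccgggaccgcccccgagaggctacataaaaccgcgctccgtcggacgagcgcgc
Zfp36: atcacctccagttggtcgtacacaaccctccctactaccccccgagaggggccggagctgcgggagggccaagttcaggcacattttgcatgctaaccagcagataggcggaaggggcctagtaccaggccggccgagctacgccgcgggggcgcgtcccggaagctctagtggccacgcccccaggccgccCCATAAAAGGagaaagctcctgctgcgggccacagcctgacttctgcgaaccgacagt
Klf6: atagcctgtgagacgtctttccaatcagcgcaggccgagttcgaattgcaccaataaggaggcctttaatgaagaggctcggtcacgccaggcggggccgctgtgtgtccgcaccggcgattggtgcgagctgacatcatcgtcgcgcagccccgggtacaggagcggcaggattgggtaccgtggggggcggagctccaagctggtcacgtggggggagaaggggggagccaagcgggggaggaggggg

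The search covered windows of 250 bases before to 50 after each start, on both strands, and 32 of the 38 listed genes were matched to at least 1 window of 32851 in RefSeq; a gene counted if any of its windows held the letters. Egr1, Egr3, Ier2, Klf10, Myc and Hspa8 were not used here. TGACG lay in 16 of the 32 genes, Fos, Dusp1, Fosb, Junb, Atf3, Btg2, Klf4, Nr4a1 and Npas4 among them, and in 20.8% of all windows. The full TGACGTCA, which contains TGACG, lay in 3 (Dusp1, Btg2 and Maff) and in 1.79% of all windows. The CArG box lay in 2 (Zfp36 and Egr2) and in 1.63% of all windows, and TATAAA in 5 and in 13.6%. A FoxO motif, GTAAACA, lay in 1 gene, Junb (3.65% of all windows), an HNF4 motif, CAAAGTCCA, in 0 (0.475%) and an AP-1 motif, TGANTCA, in 0 (7.81%). These matches describe letters in the window and not binding.

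Among the Fos and Jun genes, Fos rose with the loss of Hnf4a. It lies on chromosome 12 (85473890 to 85477273, plus strand, GRCm38) and measured 73.3, 68.5, 113, 64.4 and 62.4 FPKM in WT replicates 1 to 5, and 48.7, 48.6, 83.1, 58.6 and 56.0 FPKM in IKO. In HKO it measured 81.1, 84.2, 99.4, 120.1 and 119 FPKM, and in DKO 104, 100.3, 76.8, 97.7 and 97.7 FPKM. Replicate 3 was the highest library in WT and IKO and the lowest in DKO. With it, the HKO and DKO libraries overlapped those of WT and IKO, as in all 35 members. Over 10 libraries Fos was 67.7 ± 19.2 FPKM (SD) with Hnf4a and 98.1 ± 14.5 FPKM without it, a ratio of 1.45, and all 10 libraries without Hnf4a were above the mean of those with it (log2 0.56, SE 0.12, limma adjusted p = 0.00911). Within library sets the log2 difference was 0.64 in replicates 1 and 2, −0.15 in the libraries numbered 3 and 0.84 in replicates 4 and 5. In DKO against IKO it was 0.71 (SE 0.16, adjusted p = 0.0383) and within sets 1.07, −0.11 and 0.76. That second call was lost without any 1 of WT replicate 1, IKO replicates 1, 2, 4 or 5 or DKO replicates 1, 2, 4 or 5 (reaching 0.112), and at equal library medians (0.0792). In HKO against WT (0.42, adjusted p = 0.481), DKO against WT (0.35, 0.613) and IKO against WT (−0.36, 0.99997) Fos did not pass. Without the 3 libraries highest in acinar transcripts (DKO replicate 3 and HKO replicates 4 and 5) the value for loss of Hnf4a was 0.51 (adjusted p = 0.0254).

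Fosb, a Fos paralogue, ran at far lower levels, again with its lowest group mean in IKO. It read 2.31, 2.32, 3.89, 1.82 and 1.19 FPKM in the WT libraries, 1.36, 1.58, 1.93, 0.906 and 1.06 in IKO, 1.96, 2.20, 2.25, 2.99 and 3.35 in HKO and 3.65, 3.88, 1.77, 2.52 and 2.70 in DKO. The groups overlapped in every comparison made, and the mean of IKO was 1.37 ± 0.41 FPKM (SD, n = 5). The log2 fold change was 0.51 for loss of Hnf4a (SE 0.16, limma adjusted p = 0.108), 0.85 in DKO against IKO (adjusted p = 0.0719) and −0.54 in IKO against WT (0.99997). Leaving out 1 library gave 0.0252 (without WT replicate 3) to 0.193 for loss of Hnf4a. Jun, the main partner of Fos, read 29.6, 29.0, 35.2, 24.5 and 24.5 FPKM in the WT libraries, 29.1, 28.5, 32.0, 22.7 and 21.2 in IKO, 24.5, 24.9, 26.0, 44.5 and 47.5 in HKO and 39.6, 36.9, 37.7, 33.1 and 32.6 in DKO. Every DKO library lay above every IKO library, as in 1.52% of all genes, but HKO was split between replicates 1 to 3, all at or below 26.0 FPKM, and replicates 4 and 5. Jun had a log2 fold change of 0.31 for loss of Hnf4a (adjusted p = 0.271), and of 0.13 without the 3 libraries named above. Of the other AP-1 members, Junb ranged from 85.2 to 164 FPKM, Jund from 68.3 to 111 FPKM and Fosl2 from 5.18 to 15.4 FPKM, and their adjusted p for loss of Hnf4a was 0.368, 0.745 and 0.821.

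**Figure D3:**
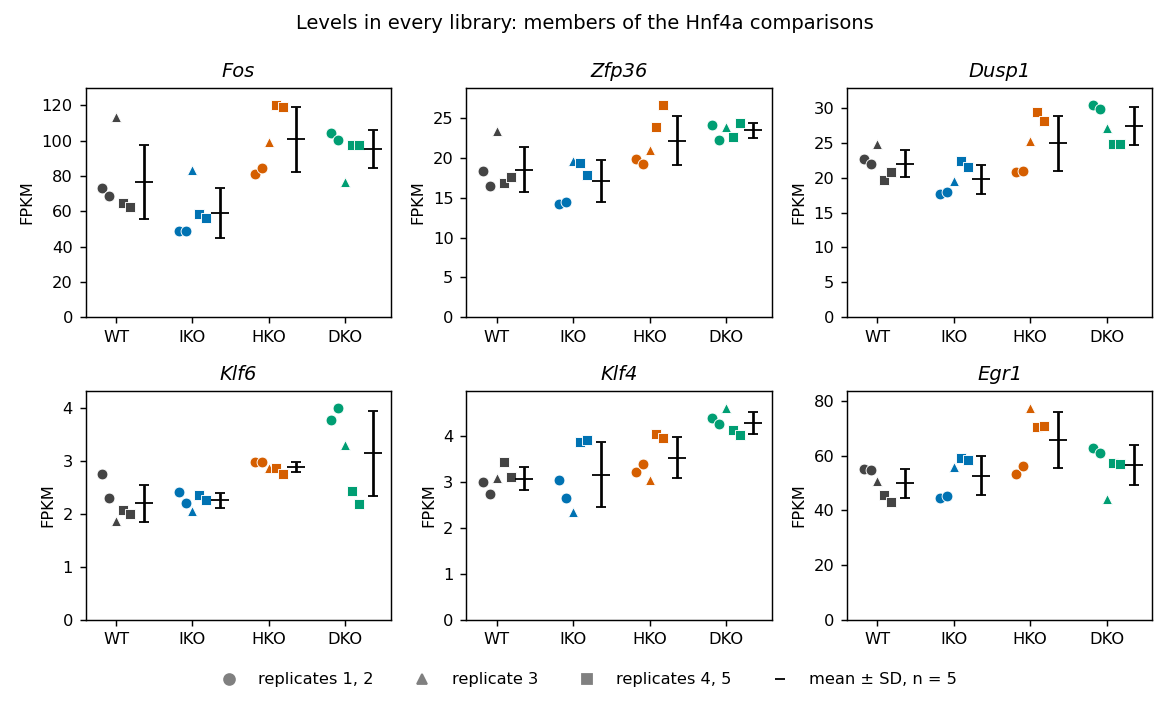
FPKM of Fos, Zfp36, Dusp1, Klf6, Klf4 and Egr1 in every library, by genotype; symbols mark the library sets, and bars give the mean ± SD of 5 libraries. Fos replicate 3 (triangles) reads 113 FPKM in WT and 76.8 FPKM in DKO, against the order of the other libraries, and the 5 DKO values of Zfp36 stay between 22.2 and 24.4 FPKM.

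Among the feedback inhibitors, Zfp36 and Dusp1 rose with the loss of Hnf4a. Zfp36 (chromosome 7, 28376784 to 28380253, minus strand) measured 18.4, 16.5, 23.4, 16.8 and 17.7 FPKM in WT and 14.2, 14.5, 19.7, 19.4 and 17.9 FPKM in IKO. It measured 19.9, 19.3, 21.0, 23.9 and 26.7 FPKM in HKO and 24.2, 22.2, 23.9, 22.7 and 24.4 FPKM in DKO. All DKO libraries were above all IKO libraries, as in 1.52% of all genes, and all 10 libraries without Hnf4a were above the mean of those with it. For loss of Hnf4a, Zfp36 went from 17.8 ± 2.69 to 22.8 ± 2.26 FPKM (SD, 10 libraries each; log2 0.35, SE 0.076, limma adjusted p = 0.0115), with set values of 0.42, 0.06 and 0.44 in replicates 1 and 2, 3, and 4 and 5. In DKO against IKO it rose by 0.46 (adjusted p = 0.0408, set values 0.67, 0.28 and 0.33), a call lost without any 1 of WT replicates 1 or 5, IKO replicates 1, 2 or 5 or any DKO replicate (up to 0.121) and at equal library medians (0.125). Without the 3 libraries highest in acinar transcripts, loss of Hnf4a gave 0.29 (adjusted p = 0.0653) and DKO against IKO 0.45 (0.0493).

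Dusp1 (chromosome 17, 26505590 to 26562128, minus strand) measured 22.7, 21.9, 24.8, 19.7 and 20.7 FPKM in WT and 17.7, 17.9, 19.5, 22.3 and 21.5 FPKM in IKO. It measured 20.9, 20.9, 25.2, 29.4 and 28.1 FPKM in HKO and 30.4, 29.9, 27.1, 24.8 and 24.8 FPKM in DKO. Every DKO library lay above every IKO library and, narrowly, above every WT library (as in 1.52% and 1.61% of all genes). In HKO replicates 1 and 2 were within the WT range and replicates 4 and 5 above it. For loss of Hnf4a the level went from 20.9 ± 2.22 to 26.2 ± 3.45 FPKM (10 libraries each; log2 0.31, SE 0.070, limma adjusted p = 0.0156), and the set values were 0.33, 0.25 and 0.34. These are averages of opposite orders over the sets: HKO against WT was −0.09, 0.03 and 0.50, and DKO against IKO 0.74, 0.46 and 0.18. DKO against IKO gave 0.46 (adjusted p = 0.0223), lost without any 1 of IKO replicates 1 or 2 or DKO replicates 1 or 2 (reaching 0.0772) and at equal medians (0.0524). HKO against WT gave 0.17 (adjusted p = 0.891), and the interaction, which tests the difference between these values, was 0.29 (adjusted p = 0.989). Without the 3 acinar-high libraries the value for loss of Hnf4a was 0.24 (adjusted p = 0.0726), and in DKO against IKO 0.46 (0.0193).

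Dusp6, a cytoplasmic phosphatase of ERK, read 1.5, 1.61, 1.79, 2.43 and 2.14 FPKM in the WT libraries, 1.53, 1.63, 1.61, 1.97 and 2.88 in IKO, 2.03, 2.21, 2.44, 2.49 and 2.46 in HKO and 2.20, 2.18, 2.24, 2.70 and 2.74 in DKO. All 10 libraries without Hnf4a were above the mean of those with it, but IKO replicate 5 was the highest of all. Its log2 fold change for loss of Hnf4a was 0.27 (SE 0.091, limma adjusted p = 0.170), and 0.33 without IKO replicate 5 (0.0216). Btg2, an antiproliferative protein that recruits deadenylases, read 65.6, 61.1, 67.8, 61.3 and 63.9 FPKM in the WT libraries, 59.9, 56.5, 71.8, 77.6 and 76.1 in IKO, 71.0, 72.5, 82.6, 75.7 and 76.9 in HKO and 68.5, 68.1, 75.1, 66.1 and 68.2 in DKO. All HKO libraries were above all WT libraries, as in 1.04% of all genes, and the log2 fold change there was 0.24 (adjusted p = 0.224). With the library set as a block, Btg2 passed there in limma (adjusted p = 0.0404), among 277 of 12455 genes. Socs3, an inhibitor of cytokine receptor signalling, ranged from 33.2 to 69.6 FPKM with a log2 fold change of −0.04 for loss of Hnf4a. Ier2 and Ier5, immediate early response genes, had 0.33 and 0.07 and did not pass.

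Klf6 was the fourth called member. It lies on chromosome 13 (5861482 to 5870394, plus strand) and measured 2.75, 2.31, 1.87, 2.08 and 1.99 FPKM in WT and 2.42, 2.20, 2.05, 2.37 and 2.26 FPKM in IKO. It measured 2.98, 2.98, 2.88, 2.87 and 2.76 FPKM in HKO and 3.79, 4.01, 3.30, 2.44 and 2.19 FPKM in DKO. HKO varied little and lay wholly above WT, as in 1.04% of all genes. DKO, in contrast, was highest in replicates 1 and 2 and within the IKO range in replicate 5. For loss of Hnf4a it went from 2.23 ± 0.253 to 3.02 ± 0.556 FPKM (10 libraries each; log2 0.36, SE 0.085, limma adjusted p = 0.0252; set values 0.42, 0.54 and 0.19). The call was lost without WT replicates 3, 4 or 5 or DKO replicate 1 (adjusted p up to 0.0540), and without the 3 acinar-high libraries (0.36, adjusted p = 0.0736). Klf4, a related zinc finger factor, read 3.01, 2.73, 3.09, 3.43 and 3.11 FPKM in the WT libraries, 3.04, 2.65, 2.35, 3.87 and 3.91 in IKO, 3.22, 3.39, 3.05, 4.05 and 3.95 in HKO and 4.39, 4.27, 4.62, 4.13 and 4.02 in DKO. All DKO libraries were above all WT and all IKO libraries (as in 1.61% and 1.52% of all genes). Klf4 lay just outside the threshold, with 0.29 for loss of Hnf4a (adjusted p = 0.0502, and 0.0216 to 0.105 with 1 library left out), 0.42 in DKO against WT (0.0701) and 0.41 in DKO against IKO (0.0819). By voom it passed for loss of Hnf4a (adjusted p = 0.0421) and in DKO against WT (0.0478). Klf2 and Klf10 had 0.18 and −0.03 for loss of Hnf4a and did not pass.

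Transcription factors of the Egr, Atf, Nr4a and Npas4 kind had no call in limma with no block or by voom. Egr1, a zinc finger factor induced by growth factors and glucose, read 55.1, 54.7, 50.8, 45.6 and 43.0 FPKM in the WT libraries, 44.4, 45.4, 55.9, 59.1 and 58.5 in IKO, 53.3, 56.2, 77.5, 70.6 and 70.7 in HKO and 62.9, 61.0, 44.3, 57.4 and 56.8 in DKO. HKO replicates 3, 4 and 5 exceeded all other libraries, and HKO replicates 1 and 2 did not. The log2 fold change was 0.39 in HKO against WT (SE 0.12, limma adjusted p = 0.194) and 0.24 for loss of Hnf4a (0.171). Atf3, a stress-induced leucine zipper factor, read 6.13, 6.72, 8.11, 5.84 and 6.60 FPKM in the WT libraries, 7.81, 7.41, 5.67, 11.7 and 10.6 in IKO, 8.72, 7.77, 7.69, 12.1 and 12.4 in HKO and 12.9, 12.5, 8.21, 9.03 and 8.38 in DKO. Every DKO library was above every WT library, as in 1.61% of all genes. The log2 fold change was 0.56 in DKO against WT (limma adjusted p = 0.215) and 0.49 in HKO against WT (0.394).

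Nr4a1, an orphan nuclear receptor, read 8.04, 8.03, 11.8, 13.7 and 11.4 FPKM in the WT libraries, 9.52, 10.3, 10.3, 13.2 and 13.1 in IKO, 11.6, 11.2, 17.8, 15.3 and 15.0 in HKO and 10.2, 9.64, 8.90, 13.4 and 13.3 in DKO. The 3 highest libraries were HKO replicates 3, 4 and 5. HKO stood 0.42 above WT on the log2 scale (limma adjusted p = 0.450), and DKO against HKO was −0.34 (0.99). With the library set as a block, Nr4a1 passed in limma in HKO against WT (adjusted p = 0.0262), among 277 of 12455 genes. Npas4, a factor induced by calcium entry, read 0.573, 0.590, 1.11, 0.671 and 0.741 FPKM in the WT libraries, 1.27, 1.31, 1.16, 1.03 and 1.22 in IKO, 0.841, 0.740, 1.12, 1.68 and 1.47 in HKO and 0.999, 1.43, 0.553, 0.926 and 1.40 in DKO, from 54 to 146 reads per library. All WT libraries but replicate 3 were below all IKO libraries, and the DKO libraries spread from 0.553 to 1.43 FPKM. The log2 fold changes were 0.47 in IKO against WT (adjusted p = 0.947), 0.42 in HKO against WT (0.514) and −0.57 for the interaction (0.989). Myc, the growth regulator, had −0.25 for loss of Hnf4a (adjusted p = 0.310), and Nr4a2 and the small Maf protein Maff had 0.09 and −0.08. Rhob, a small GTPase, had 0.11, and the DNA damage response genes Gadd45a, Gadd45b and Gadd45g had 0.05, −0.08 and −0.11.

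The 6 heat shock members gave 0 calls in all 8 comparisons, by limma with no block or by voom. With the library set as a block, limma called 277 of 12455 genes in HKO against WT and 434 in DKO against IKO. With no block it called 98 and 138. The block calls included Hspa1a and Hspa1b in HKO against WT and Dnajb1, as lower, in DKO against IKO (−0.18, adjusted p = 0.0409). At an unadjusted p below 0.05 the counts were 1 higher in IKO against WT (Dnajb1) and in HKO against WT (Hspb1), and 1 lower in DKO against HKO (Hspb1), in DKO against IKO (Dnajb1) and in the interaction (Dnajb1). Hspa1a and Hspa1b, the inducible Hsp70 pair, are shown because their copies are hard to tell apart. They lie on chromosome 17 at 34969190 to 34972156 and 34956436 to 34959238, both on the minus strand, and the 250 bases before their RefSeq start sites, chr17:34972157-34972406 and chr17:34959239-34959488, are the same at 247 positions (98.8%) when set side by side without gaps. Capitals mark the heat shock element GAANNTTC, which lay in 6 of the 32 matched genes (Fosl2, Jun, Hspa1a, Hspa1b, Hsph1 and Hspb1) and in 7.86% of all windows.
Hspa1a: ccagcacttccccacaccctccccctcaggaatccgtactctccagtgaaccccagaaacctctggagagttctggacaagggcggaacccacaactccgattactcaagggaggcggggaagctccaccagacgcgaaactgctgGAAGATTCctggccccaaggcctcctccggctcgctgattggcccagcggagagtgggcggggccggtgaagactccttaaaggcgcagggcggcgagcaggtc
Hspa1b: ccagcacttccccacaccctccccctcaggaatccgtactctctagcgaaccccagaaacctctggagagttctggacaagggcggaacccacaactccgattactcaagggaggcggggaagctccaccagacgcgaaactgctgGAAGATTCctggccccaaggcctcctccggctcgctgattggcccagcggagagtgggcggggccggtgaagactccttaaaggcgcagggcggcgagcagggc

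Reads of such near-identical genes could have been split or dropped in counting, so the value of either copy alone is uncertain. Hspa1a read 2.29, 2.07, 1.43, 0.653 and 0.668 FPKM in the WT libraries, 5.38, 5.21, 1.15, 1.67 and 1.51 in IKO, 4.17, 4.14, 2.47, 2.07 and 1.68 in HKO and 4.05, 4.25, 1.22, 0.904 and 0.866 in DKO, from 50 to 429 reads per library. Hspa1b read 2.21, 2.31, 1.34, 0.578 and 0.545 FPKM in the WT libraries, 5.35, 5.61, 0.725, 1.37 and 1.38 in IKO, 5.07, 5.08, 2.02, 1.86 and 2.03 in HKO and 4.52, 4.23, 1.28, 1.02 and 0.770 in DKO. In every genotype replicates 1 and 2 were the highest, and inside the sets of replicates 1 and 2 and of 4 and 5 each deletion group was above WT. Hspa1a differed from WT by 1.11, −0.22 and 0.85 in IKO and by 0.79, 0.62 and 1.03 in HKO on the log2 scale within sets (replicates 1 and 2, 3, and 4 and 5). Hspa1b in HKO differed from WT by 1.01, 0.45 and 1.20, so both genes were higher in HKO than in WT in all 3 sets. The pooled values did not pass, with 0.74 in IKO against WT (SE 0.43, limma adjusted p = 0.99997), 0.85 in HKO against WT (0.754) and −1.21 for the interaction (0.989). For Hspa1b they were 0.66 (0.99997), 0.98 (0.752) and −1.16 (0.989). With the library set as a block, added after seeing the data, HKO against WT passed in limma for Hspa1a (adjusted p = 0.0054) and Hspa1b (0.00366). Close pairs still counted as separate libraries, and 277 of 12455 genes passed there, beside 98 with no block.

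Dnajb1, the Hsp40 that hands clients to Hsp70, read 18.3, 17.8, 16.4, 15.9 and 15.3 FPKM in the WT libraries, 20.9, 21.9, 16.8, 18.2 and 19.7 in IKO, 19.8, 18.1, 16.8, 16.1 and 17.2 in HKO and 17.6, 18.6, 15.8, 17.0 and 16.9 in DKO. The values varied little, and IKO was the highest group (0.21 against WT, SE 0.074, limma adjusted p = 0.916). Hspb1, a small heat shock protein, was 3.05 ± 0.82 FPKM in the WT libraries, 3.40 ± 2.15 in IKO, 4.79 ± 0.755 in HKO and 3.13 ± 0.343 in DKO (SD, n = 5). Every DKO library was below every HKO library, as in 0.377% of all genes, with a log2 fold change of −0.54 (adjusted p = 0.99). Hspa8 (237 to 368 FPKM) and Hsph1, a nucleotide exchange factor of Hsp70 (23.5 to 42.8 FPKM), had −0.14 and −0.06 for loss of Hnf4a.

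**Figure D4:**
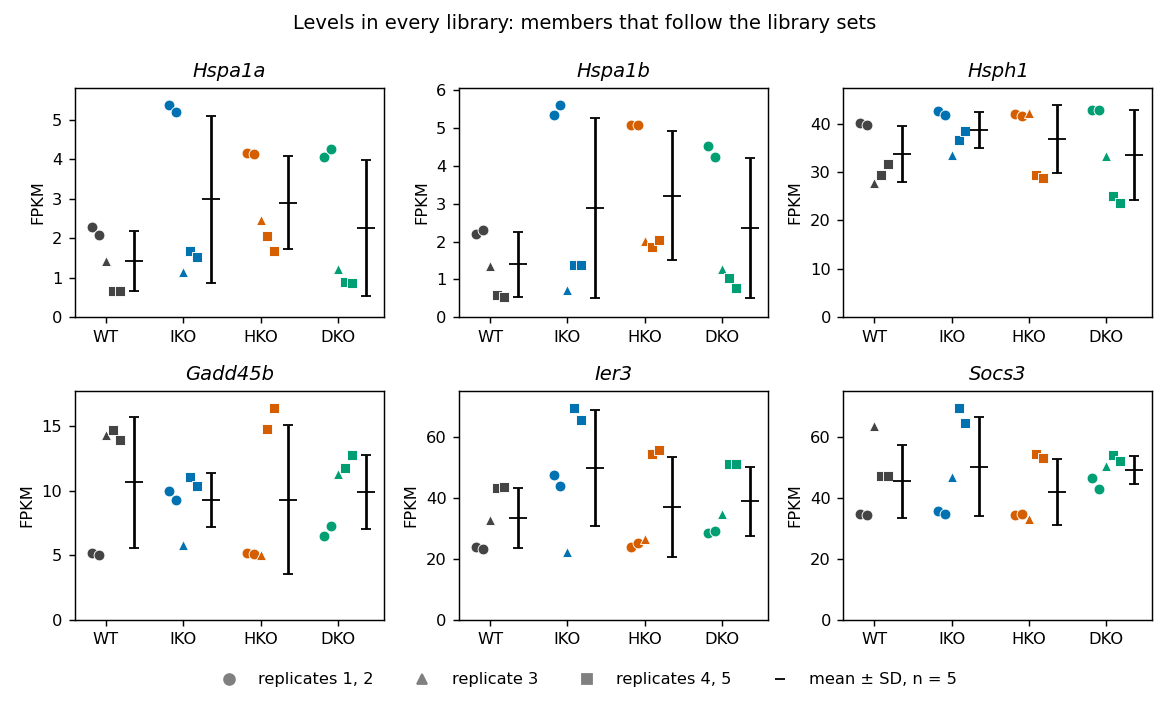
FPKM of Hspa1a, Hspa1b, Hsph1, Gadd45b, Ier3 and Socs3 in every library, by genotype; symbols mark the library sets and bars the mean ± SD of 5 libraries. In each genotype Hspa1a and Hspa1b are highest in replicates 1 and 2 (circles), and Gadd45b, Ier3 and Socs3 are higher in replicates 4 and 5 (squares) than in replicates 1 and 2.

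The sets of libraries separated many members inside each genotype. These sets were recognised from the reads of all genes, so the values describe the libraries and carry no test. In all 4 genotypes, replicates 4 and 5 were both higher than replicates 1 and 2 in 12 of 35 members (Fosl2, Junb, Ier2, Ier3, Dusp6, Klf2, Nr4a1, Nr4a2, Maff, Socs3, Gadd45b and Gadd45g), as in 10.2% of all genes. They were both lower in 4 members, all chaperone genes (Hspa1a, Hspa1b, Hsph1 and Dnajb1), as in 21% of all genes. The median difference was 0.18 on the log2 scale over the 29 immediate early members, −0.48 over the 6 heat shock members and −0.05 over all genes. Gadd45b in HKO was 5.18 and 5.10 FPKM in replicates 1 and 2 and 14.8 and 16.4 FPKM in replicates 4 and 5. Ier3, an ERK-regulated survival gene chosen after its values were seen, was 24.0 and 23.3 FPKM against 43.5 and 43.8 FPKM in WT. Its values in IKO were 47.6, 44.2, 22.4, 69.8 and 65.7 FPKM, of which replicate 3 was below every WT library and the other 4 above every WT library (log2 0.52, limma adjusted p = 0.99997). Fos, Zfp36, Dusp1 and Klf6 were in neither list.

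**Figure D5:**
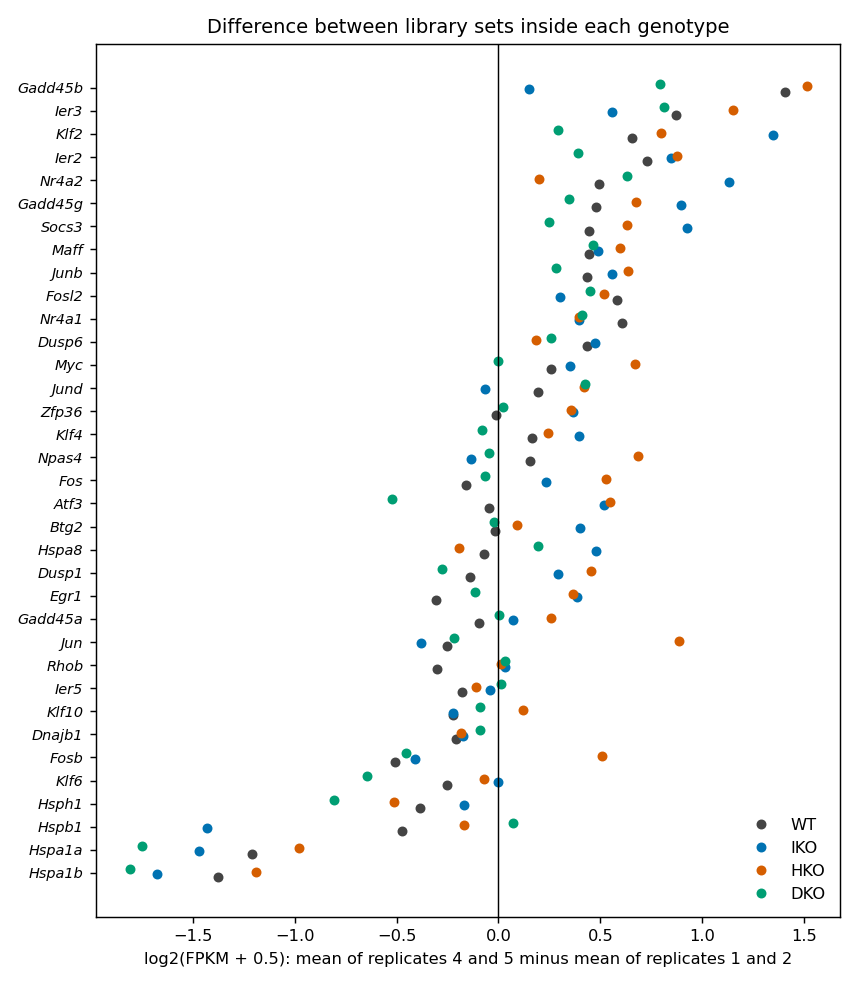
Difference in log2(FPKM + 0.5) between the mean of replicates 4 and 5 and the mean of replicates 1 and 2 inside each genotype, for the 35 members in order of their average. Gadd45b, Ier3, Klf2 and Ier2 lie above 0 in all 4 genotypes, and Hspa1a, Hspa1b, Hsph1 and Dnajb1 lie below 0 in all 4.

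Members of the same set pattern also moved together from library to library. Over the 20 libraries, as deviations from the group means, Hspa1a and Hspa1b had a Pearson r of 0.986, Klf2 and Socs3 0.981, Socs3 and Gadd45g 0.964, Ier3 and Maff 0.949, and Junb and Ier2 0.944. The lowest value was that of Jund and Hsph1, −0.836. The mean of the immediate early members and the mean of the heat shock members had r = −0.536. Outside the members, the genes most like the immediate early mean were Zfas1 (r = 0.929), Rgs4 (0.927), Nupr1 (0.925), 2410006H16Rik (0.924) and Txndc12 (0.916), and among those most like the heat shock mean were Slc37a4 (0.903), Gad1 (0.898), Aktip (0.894) and Fem1b (0.885). These values are descriptions: the points share the library sets and the depth of each library.

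Of the lists of related genes, Arc, Irs2 and Nfatc1 passed. Of 46 other genes known to respond early to stimuli, 38 were tested. For loss of Hnf4a 1 rose, Arc, a synaptic immediate early gene (1.48 ± 0.49 to 2.14 ± 0.498 FPKM, 10 libraries each; log2 0.44, limma adjusted p = 0.0419), and 1 fell, Irs2, the insulin receptor substrate induced by cAMP (17.5 ± 1.75 to 14.1 ± 0.898 FPKM; −0.30, adjusted p = 0.00348), beside 0.963% of all genes higher and 2.6% in either direction. Irs2 also fell in DKO against IKO (−0.34, adjusted p = 0.0361). Of 32 kinases and factors that act upstream of these genes, 31 were tested, and 1 fell for loss of Hnf4a, Nfatc1, a calcium-dependent factor (2.40 ± 0.214 to 1.91 ± 0.167 FPKM; −0.27, adjusted p = 0.00871). Of 29 other heat shock genes 28 were tested and 0 passed in limma or in voom in any comparison, with at most 1 at an unadjusted p below 0.05 in each direction of a comparison. The medians for loss of Hnf4a were −0.03, 0.03 and −0.01 in these lists, against 0.00 over all genes. The calls of Arc, Irs2 and Nfatc1 ended when close pairs were averaged or correlated. Arc lost its call without any 1 of 15 of the 20 libraries (all but WT replicate 4, IKO replicate 3, HKO replicates 1 and 2 and DKO replicate 2; adjusted p up to 0.0867). It also lost it at equal library medians (0.0552), with quantile normalization (0.0627), with no filter (0.0705) and without the 3 acinar-high libraries (0.142), and passed by voom (0.0325). Irs2 lost its call in DKO against IKO without any 1 of IKO replicates 1, 2, 4 or 5 or DKO replicates 1 to 4 (up to 0.108). Beside all changes with loss of Hnf4a, the acinar markers were higher, and 18 of the 21 tested passed. Their mean log2 level over the 24 listed was 1.84 in the WT libraries, 1.51 in IKO, 3.80 in HKO and 2.92 in DKO. Leaving out the 3 acinar-high libraries did not even this out. HKO replicates 1 to 3 kept summed levels of 455 to 496 FPKM, above every WT and IKO library (27.9 to 289.7 FPKM), while DKO replicates 4 and 5 (187 FPKM each) lay inside that range. The part of the acinar markers in the changes of Fos, Zfp36, Dusp1 and Klf6 was not tested beyond leaving out those libraries. The 6 markers of delta, PP and epsilon cells also had log2 fold changes above 0 for loss of Hnf4a, from 0.23 to 0.51 with a median of 0.32, none of them passing, and their part in these changes was not tested.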

How the data were processed

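RNA of sorted beta cells was sequenced in 20 libraries, 5 per genotype, as directional poly-A paired-end reads per the labels. The authors deposited 1 table of FPKM values, with 0 columns of other samples, and 27179 entries, of which 847 named NA (0.081 to 0.204% of reads) and 27 carrying dates (0.16 to 0.186%) were left out. The build mm10 and the tools STAR 2.5.2b, Subread 1.5.2, featureCounts and DESeq2 1.14.1 come from the submitters' processing notes. Not given in the sources used here were the annotation, filters and the strand setting of counting, so overlapping, antisense and near-identical genes are uncertain. FPKM values were turned back into whole reads (100% of 21006 entries above 0, within 0.001), giving totals of 22.6 to 34.7 M reads, median 27.8 M. These reads served for depth, replicate comparison and 1 added alternative.

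The 12455 genes that averaged 0.5 FPKM or more were tested on log2(FPKM + 0.5) by limma 3.58.1 with trend in R 4.3.3, all 20 libraries in 1 fit and Benjamini-Hochberg adjustment per comparison, with a threshold of 0.05. Fold changes are on that scale and understate changes of low genes. The scripts were tested on simulated data. Groups and replicate numbers came from sample titles. The 8 comparisons set each deletion group against WT, DKO against each single deletion, and tested the interaction and the average effect of each deletion. Members, lists, comparisons and library sets were chosen with earlier results of these data known. Named were members passing in any comparison, then those with the lowest unadjusted p up to 14, and always Fos, Jun, Egr1, Hspa1a and Hspa1b, which gave 16. Replicate numbers were not used as a block, since no label says that a number marks a shared litter, batch or day. Across genes, correlations of deviations among libraries numbered 3 were of either sign (median 0.0131, −0.386 to 0.254). For numbers 1, 2, 4 and 5 the medians were 0.292 to 0.402. Alternatives were other pseudocounts (0.1 and 1), filters and scalings, a replicate block, close pairs averaged or correlated, each library left out, and the 3 acinar-high libraries left out; added after seeing the data were voom and the library set as a block. One of the genes that the rule on likeness picks is not reported here.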

Additional observations from a re-analysis of the deposited data

Results flagged for a closer look

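In groups of 5, a library was looked at again where its gap to the nearest other exceeded 0.71 of the range of the group (Dixon's limit). Of 72 gene and group pairs 5 were past it. The limit gives about 1 in 20 by chance for separate samples, a rate that cannot be used here: replicates 1 and 2, and 4 and 5, are close pairs, so only replicate 3 was likely to pass it, and all 5 were replicate 3. Fos read 113.1 FPKM in WT replicate 3 (others 62.4 to 73.3), 83.1 FPKM in IKO replicate 3 (others 48.6 to 58.6) and 76.8 FPKM in DKO replicate 3 (others 97.7 to 104.5), so the libraries numbered 3 were high in WT and IKO and low in DKO. Zfp36 read 23.4 FPKM in WT replicate 3 (others 16.5 to 18.4), and Btg2 75.1 FPKM in DKO replicate 3 (others 66.1 to 68.5). DKO replicate 3 also had the highest mean log2 level of all libraries for the 24 acinar markers, 4.73. The same held for its alpha cell (4.10), ductal (4.05), endothelial (0.963), immune (1.34) and stellate and fibroblast markers (0.137). It did not hold for the beta cell markers or for those of delta, PP and epsilon cells. The part of these markers in the values of this library was not tested.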

How the results depend on the processing

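For loss of Hnf4a, 4 members passed; with close pairs averaged or correlated (consensus correlation 0.81) 0 passed, without the 3 acinar-high libraries 1 (Fos), with voom 5 (Klf4 added), with the replicate block 7 (Klf4 and Dusp6 among those added), with the library set as a block 8, and with 1 library left out 3 to 6. In DKO against IKO, where 3 passed, 0 passed at equal library medians and with close pairs averaged or correlated, 1 without a filter on low values (Dusp1), 4 without the acinar-high libraries (Fosb added, adjusted p = 0.0323), 5 with the replicate block (Klf4 added, 0.0367), 8 with the library set as a block (7 higher; Dnajb1 lower), and 0 to 4 with 1 library left out. In HKO against WT, 0 members became 2 with the replicate block, the heat shock genes Hspa1a (adjusted p = 0.0143) and Hspa1b (0.0104). With the library set as a block they became 4, with Btg2 and Nr4a1 added. Among all 12455 genes, the 98 calls there became 193 and 277. In DKO against WT, 0 became 1 with the replicate block, 4 with the library set as a block, 1 with voom, and 0 to 1 with 1 library left out. All-gene calls there went from 150 to 263 with the replicate block, 363 with the library set as a block and 157 with voom. The other 4 comparisons stayed at 0 members under every alternative run. The cause of these changes was not tested. Averaging left fewer samples and also moved the estimates for loss of Hnf4a. Fos went from 0.56 to 0.44, Zfp36 from 0.35 to 0.31, Dusp1 from 0.31 to 0.30 and Klf6 from 0.36 to 0.39. Among all genes, 324 calls for loss of Hnf4a became 46 with close pairs averaged, 94 with close pairs correlated, 515 with the replicate block and 630 with the library set as a block; in DKO against IKO 138 became 15, 26, 291 and 434. No fold change of a called member changed sign under any alternative fit; among the sets given in the report, Fos did so in the libraries numbered 3. The labels give replicate numbers no meaning, yet correlations of deviations were positive among libraries numbered 1, 2, 4 and 5 (medians 0.292 to 0.402). For those numbered 3 they were of either sign. Depth limits Egr2, Egr3 and Nr4a3 (at most 19, 5 and 10 reads), and repeat preparations of 1 sample cannot be told apart from separate animals.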
